A study of Macaca fascicularis with 38 samples.

Results

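Transcript levels of 37 genes that control pre-mRNA splicing were followed across a pair of biopsies of the prefrontal cortex in cynomolgus macaques (Macaca fascicularis). The genes are the CLK kinases CLK1, CLK2, CLK3 and CLK4, the related kinases SRPK1, SRPK2 and DYRK1A, 10 SR proteins, the SR-related proteins TRA2A, TRA2B, SRRM1 and SRRM2, and 16 hnRNP genes. They were taken by gene symbol, and all 37 of them are among the 29958 genes of the deposited table. The set was chosen by the measured difference in CLK1 between the biopsies of these same animals. CLK1 is therefore described without a test between biopsies, and counts over those comparisons refer to the other 36 genes. These were taken by family name, with earlier results of these data known, and do not cover every gene of the families.

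SR proteins bind exonic sequences and generally favour the use of nearby splice sites, whereas many hnRNPs bind nascent transcripts and repress sites. CLK kinases phosphorylate the arginine-serine domains of SR proteins inside the nucleus and release them from nuclear speckles, and SRPK kinases phosphorylate the same domains in the cytoplasm before import. CLK1 and its close relative CLK4 are also known to regulate their own transcripts, which are partly kept in the nucleus with unspliced introns, and many SR protein and hnRNP genes adjust their own output through exons that lead to nonsense-mediated decay. The deposited values are totals per gene, so productive and nonproductive transcripts of a gene cannot be told apart here.

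The tissue was area 46, biopsied once before and once after a period in which ethanol was offered for voluntary drinking. The table covers 16 animals, 8 in the cohort named 9 and 8 in the cohort named 13, and by the marks in its header each cohort holds 5 drinkers and 3 controls, which makes 10 and 6 in all. The sample labels give every library an ethanol treatment, before or after, so the header alone separates the arms. Ages, intake and the time between biopsies were not given in the sources used here. Each animal gave both biopsies, and the animals are independent samples.

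Levels are in TPM, a length-corrected share of a library's transcripts. The TPM steps gave back 12.5 to 38.2 M reads per library, and cohort 13 was the deeper one, at a median of 33.4 M against 15.8 M in cohort 9. The members were covered by 309 to 23108 reads in a library. All 37 passed the filter of a mean of at least 1 TPM, which left 15324 genes for testing. No marker of neurons, oligodendrocytes or astrocytes was at 0 in all libraries, and the 10 neuron markers summed to between 2975 and 9812 TPM per library. The microglia, blood and endothelial markers in the table were not at 0 in all libraries either, so detection alone does not check the labelled area. The median log2 difference over all tested genes was 0.17 in favour of the second biopsy. Many results are therefore also given with the median of every library set equal (median-scaled). Values with no scale named are as deposited. In bulk tissue, fewer cells of a type and less RNA per cell cannot be told apart.

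CLK1 stood higher at the second biopsy in all 16 animals, and among its paralogs CLK4 rose in the same way, CLK3 rose less and CLK2 did not pass the test. In drinkers CLK1 ran from 10.4 TPM at the lowest, through a median of 36.4, to 60.9 at the highest in the first biopsy, and from 74.6 through 104.1 to 148.2 in the second. In controls it ran from 31.3 through 39.7 to 65.9 and then from 58.4 through 87.4 to 122.3. The biopsies did not overlap in drinkers, and in controls they overlapped because the animal highest at first, X10204 with 65.9 TPM, was above the lowest second biopsy, that of X10232. The mean level was 3.13 times higher in drinkers and 2.17 times higher in controls. The log2 difference over all animals was 1.48 ± 0.13 (SE, n = 16), and 1.26 ± 0.12 when median-scaled. By the as-deposited difference CLK1 was at rank 4 of the 15324 tested genes from the largest rise. The set was chosen by the difference of CLK1, so this rank only describes the gene.

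CLK4 was the least abundant of the CLK kinases at the first biopsy, with a mean of 9.80 ± 3.13 TPM (SD, n = 16), and reached 19.4 ± 6.19 TPM at the second. The drinkers of cohort 9 went from 12.2 to 22.4, 8.88 to 27.9, 12.9 to 29.95, 12.6 to 28.1 and 14.0 to 21.2 TPM, and the controls of that cohort from 9.43 to 25.5, 12.5 to 23.7 and 13.4 to 16.9 TPM. In cohort 13 the drinkers went from 2.64 to 10.5, 5.31 to 16.6, 7.54 to 14.9, 9.53 to 16.5 and 7.04 to 14.6 TPM, and the controls from 9.14 to 12.3, 9.70 to 13.5 and 10.01 to 15.1 TPM. Every animal was higher at its second biopsy, and within each cohort the lowest second biopsy lay above the highest first biopsy. The log2 rise of CLK4 was 0.93 ± 0.11 (SE, n = 16, limma adjusted p = 1.66e-05) and 0.71 ± 0.09 when median-scaled (limma adjusted p = 2.81e-05). It ranked 39 of 15324 genes from the largest rise.

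CLK3 and CLK2, the remaining nuclear kinases of the family, had first-biopsy means of 12.2 ± 2.11 and 21.6 ± 5.55 TPM (SD, n = 16). CLK3 went from a range of 9.19 to 15.9 TPM, median 12.1, to a range of 10.02 to 20.5 TPM, median 17.035, and was higher in 13 of 16 animals. It rose by a log2 value of 0.42 ± 0.09 (limma adjusted p = 0.00271), whereas the median-scaled difference of 0.21 ± 0.08 missed the threshold (limma adjusted p = 0.0539). CLK2 ranged from 11.3 to 29.7 TPM, median 21.6, and then from 13.7 to 30.7 TPM, median 24.7, with 10 animals higher and 6 lower. Its log2 difference was 0.16 ± 0.09 (limma adjusted p = 0.163) and turned to -0.06 when median-scaled.

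**Figure D1:**
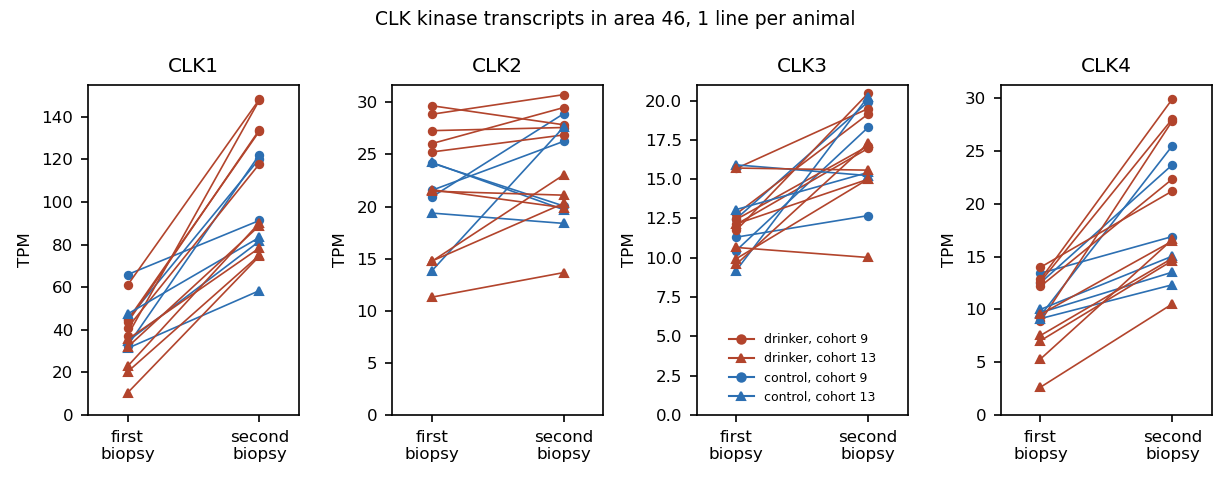
TPM of CLK1, CLK2, CLK3 and CLK4 at the first and second biopsy, with 1 line per animal, colour for drinkers and controls and symbol for cohort. All 16 lines of CLK1 and of CLK4 go up, whereas 10 of 16 go up for CLK2 and 13 of 16 for CLK3.

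Across the other 36 genes the as-deposited values favoured the second biopsy, and much of that was shared with genes at large. By limma-trend on log2(TPM + 1) with the animal as a block, 23 of the 36 rose and 0 fell at an adjusted p below 0.05, against 32.9% of all tested genes higher and 3.69% lower. After median scaling 8 rose and 1 fell, against 9.7% of all tested genes higher and 17.1% lower. Among all called genes, 89.9% were higher as deposited and 36.2% when median-scaled. The median log2 difference of the 36 was 0.33 as deposited and 0.11 when median-scaled, against 0.17 and -0.04 for all tested genes. Of the 36, 28 lay above the median of all genes. Over all animals, median scaling shifts every gene by the same amount, so this count cannot differ between the scales. The 8 that rose when median-scaled were CLK4, SRPK2, SRSF1, SRSF7, TRA2A, HNRNPA3, HNRNPH2 and HNRNPU. Leaving out each animal in turn, CLK4, SRSF1, TRA2A and HNRNPU passed all 16 times on this scale and SRSF7 13 times, whereas HNRNPH2 passed 10 times, SRPK2 8 times, HNRNPA3 6 times and the fall of SRSF5 10 times. As deposited but with mitochondrial genes left out of the TPM total, 15 of the 36 rose (18.1% of all genes higher), on recovered reads with limma-voom 11 did (13.8%), and without the animal as a block 17 did (17.6%).

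**Figure D2:**
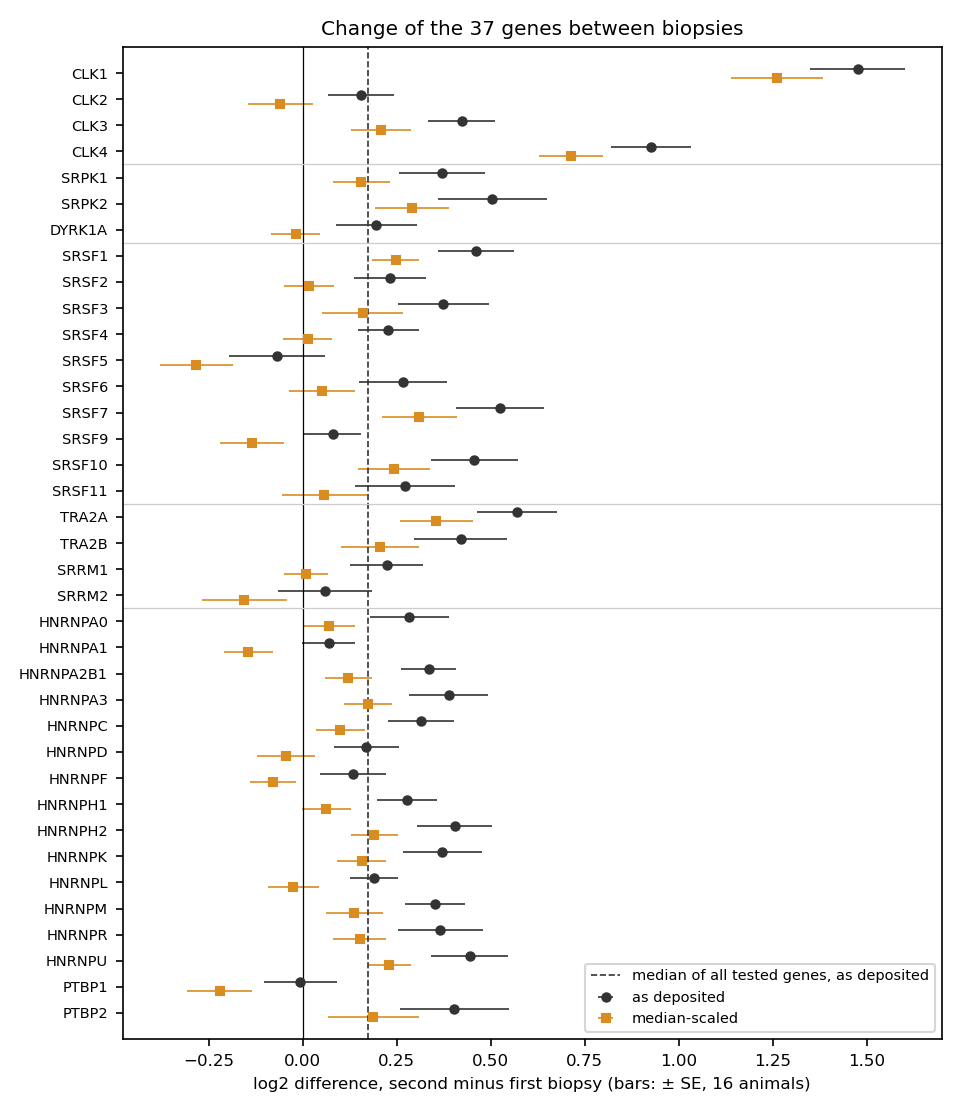
Log2 difference between the second and the first biopsy (± SE, 16 animals) for each of the 37 genes, as deposited (circles) and median-scaled (squares), with families divided by grey lines and the median of all tested genes as deposited, 0.17, as a dashed line. CLK1 and CLK4 lie apart on the right at 1.48 and 0.93, and all other members lie between -0.07 and 0.57 as deposited.

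Markers of cell types moved along with these counts. Of 10 neuron markers 7 rose and 0 fell as deposited, and of 10 oligodendrocyte markers 4 rose and 0 fell. Of 10 astrocyte markers 1 rose and 1 fell, while 8 of 10 microglia markers, 4 of 7 blood markers and 1 of 8 endothelial markers fell and none of those rose. When median-scaled, 5 neuron markers rose and 1 fell, and 1 oligodendrocyte marker rose. On that scale 4 astrocyte, 9 microglia, 5 blood and 6 endothelial markers fell and 0 rose. The summed neuron markers ranged from 2975 to 9812 TPM in the first biopsies and from 4981 to 8531 TPM in the second, and summed microglia markers from 142.8 to 335.9 and then from 133.0 to 252.0 TPM. With the mean levels of neuron, oligodendrocyte and astrocyte markers as covariates, 2 of the 36 were called, CLK4 higher at 0.77 (limma adjusted p = 0.00417) and SRSF5 lower at -0.47 (limma adjusted p = 5.62e-04), against 1.72% of all genes higher and 1.06% lower. CLK1 had a log2 difference of 1.41 in that fit.

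The animals differed in how far all genes moved, and CLK1 and CLK4 were higher at the second biopsy in each of them. In X10230, X10233, X10234 and X10236, all of cohort 13, the neuron marker mean was lower at the second biopsy and the median change over all tested genes was -0.19, -0.08, -0.10 and -0.03. The median change of the 36 members in these animals was -0.18, -0.12, -0.07 and 0.08, close to that of all genes. CLK1 was higher by log2 values of 1.45, 0.80, 1.22 and 1.84 and CLK4 by 0.73, 0.44, 0.54 and 0.96 in the same animals, of which X10233 and X10234 are controls. In the remaining animals CLK4 was higher by between 0.31 (X10204) and 1.66 (X10226). The part of cell composition in these changes was not tested. CLK1, by whose difference the set was chosen, had the largest change of the 37 genes in 15 of 16 animals. The exception was X10232, where CLK1 ranked 5 at 0.88 and SRRM2 ranked 1 at 1.25. CLK4 had the largest change of the other 36 in 11 of 16 animals.

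**Figure D3:**
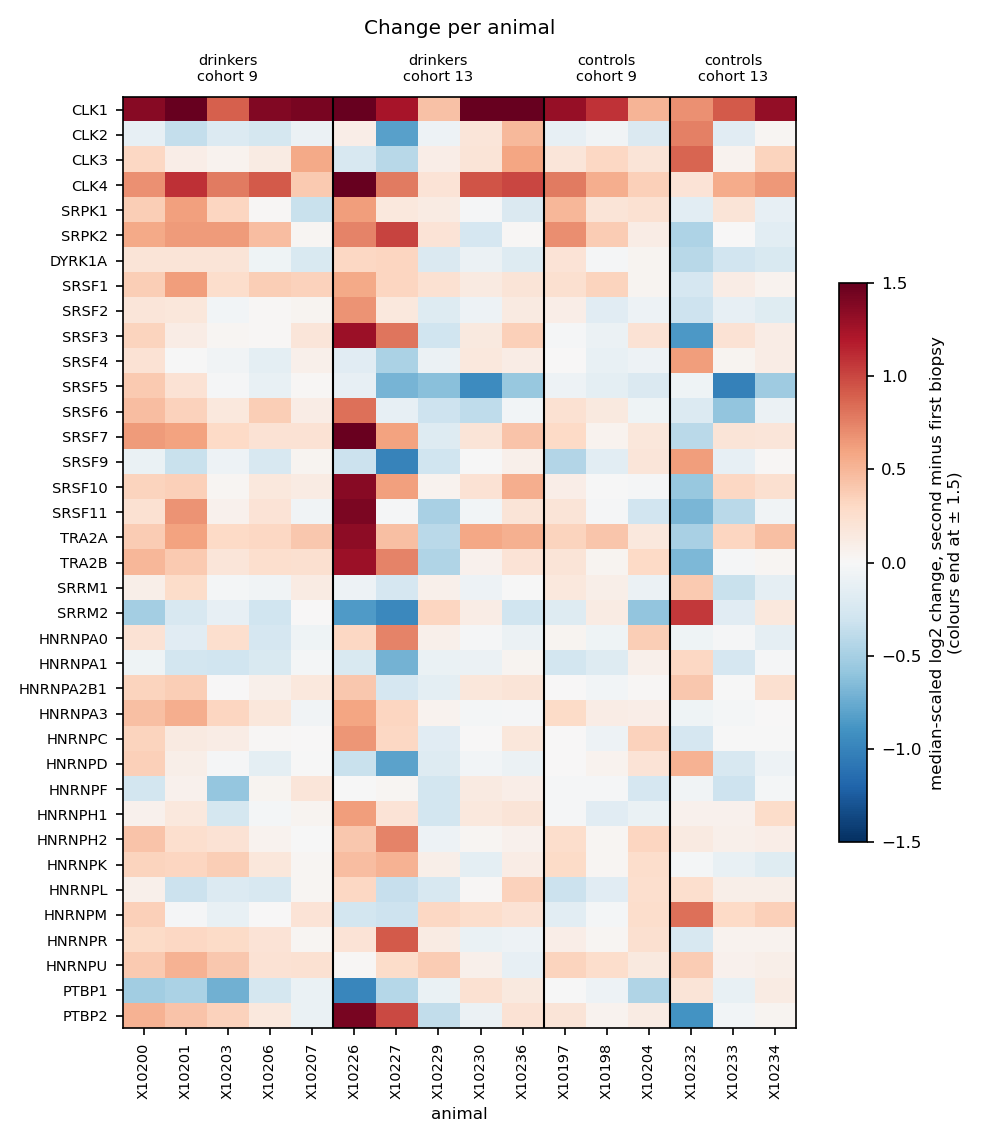
Median-scaled log2 change between biopsies for the 37 genes (rows) in each of the 16 animals (columns), red for higher and blue for lower at the second biopsy, with colours ending at ± 1.5. The CLK1 and CLK4 rows are red throughout, and SRSF5 is blue in all 8 animals of cohort 13.

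Among the kinases that act beside the CLK family, SRPK2 and SRPK1 rose and DYRK1A, a kinase of several splicing factors, did not pass the test. SRPK2, the neuronally enriched cytoplasmic kinase of SR proteins, ranged from 15.4 to 83.1 TPM, median 33.8, in the first biopsy and from 32.1 to 70.1 TPM, median 52.1, in the second. The second range lay within the first, and 11 of 16 animals were higher. Its log2 difference was 0.50 ± 0.14 (limma adjusted p = 0.0132) and 0.29 ± 0.10 when median-scaled (limma adjusted p = 0.0356). SRPK1 rose by 0.37 ± 0.11 as deposited (limma adjusted p = 0.0179) and lost the call when median-scaled (0.16, limma adjusted p = 0.12). DYRK1A had a difference of 0.20 ± 0.11 (limma adjusted p = 0.149).

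Of the 10 SR proteins, the main substrates of these kinases, 5 rose and 0 fell as deposited, and 2 rose and 1 fell when median-scaled. SRSF1, the founding member of the family, went from 14.2 to 41.3 TPM, median 27.5, to between 25.6 and 54.5 TPM, median 39.2. It was higher in 12 of 16 animals as deposited and in 15 of 16 when median-scaled, and it rose by 0.46 ± 0.10 (limma adjusted p = 0.00338) and 0.25 ± 0.06 (limma adjusted p = 0.00819). SRSF7, which also takes part in mRNA export, went from between 27.5 and 94.9 TPM, median 58.5, to between 63.0 and 107.3 TPM, median 84.3. It was higher in 14 of 16 animals and rose by 0.53 ± 0.12 (limma adjusted p = 0.00382), or 0.31 ± 0.10 when median-scaled (limma adjusted p = 0.0268).

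SRSF10, SRSF3 and SRSF4 rose over all animals as deposited and did not pass when median-scaled. Their as-deposited log2 values were 0.46, 0.37 and 0.23, with limma adjusted p of 0.00752, 0.0225 and 0.0323. SRSF10 is known as a splicing repressor when dephosphorylated, and SRSF3 as a factor in export and polyadenylation as well as splicing. SRSF2, SRSF6, SRSF9 and SRSF11 did not pass the test on either scale, with as-deposited differences of 0.23, 0.27, 0.08 and 0.27.

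SRSF5 was the member whose cohorts parted most. In cohort 9 its 8 first biopsies lay between 90.1 and 145.0 TPM, median 109.6, and its second biopsies between 92.8 and 164.9 TPM, median 133.3. In cohort 13 the first biopsies lay between 65.1 and 157.6 TPM, median 103.7, and the second between 59.5 and 93.1 TPM, median 74.2. As deposited the overall difference was -0.07 ± 0.13 (limma adjusted p = 0.687), and median-scaled SRSF5 fell by 0.28 on the log2 scale (± 0.10, limma adjusted p = 0.0371), with 13 of 16 animals lower, all 8 of cohort 13 among them. The difference between cohorts in its change was -0.69 ± 0.21 in cohort 13 relative to cohort 9, with an unadjusted p of 0.00341 and a limma adjusted p of 0.511, so it did not pass over all genes. As deposited the drop in cohort 13 came from X10230, X10233, X10234 and X10236, which went from 157.6 to 70.3, from 130.9 to 59.5, from 122.1 to 77.9 and from 121.9 to 79.3 TPM. These are the 4 animals with a lower neuron marker mean at the second biopsy. With the marker means as covariates SRSF5 was lower in cohort 13 at -0.52 ± 0.07 (limma adjusted p = 0.00119).

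TRA2A and TRA2B, sequence-specific activators that work with SR proteins, rose, whereas SRRM1 and SRRM2, large coactivators of the spliceosome and of speckles, did not pass the test. TRA2A lay between 11.5 and 33.4 TPM in the drinkers' first biopsies, median 26.9, and between 34.6 and 51.0 TPM in the second, median 40.0. The drinkers' biopsies did not overlap, and in the controls, at 21.7 to 30.8 and then 22.5 to 43.1 TPM, they did. TRA2A rose by 0.57 ± 0.11 (limma adjusted p = 0.00119), or 0.36 ± 0.10 when median-scaled (limma adjusted p = 0.0126), and was higher in 15 of 16 animals. TRA2B rose by 0.42 ± 0.12 as deposited (limma adjusted p = 0.0153) and lost the call when median-scaled (0.21, limma adjusted p = 0.139). SRRM2 was higher in 8 animals and lower in 8, with a difference of 0.06 ± 0.12.

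Of the 16 hnRNP genes 12 rose and 0 fell as deposited, and 3 rose when median-scaled. HNRNPU, which binds nuclear RNA and chromatin, went from between 35.0 and 102.1 TPM, median 68.9, to between 57.8 and 126.0 TPM, median 96.9. It rose by 0.44 ± 0.10 (limma adjusted p = 0.0044), or 0.23 ± 0.06 when median-scaled (limma adjusted p = 0.0079), where 15 of 16 animals were higher. HNRNPH2, which binds runs of G, and HNRNPA3, a relative of HNRNPA1, rose by 0.40 and 0.39 as deposited and by 0.19 and 0.17 when median-scaled, with limma adjusted p of 0.031 and 0.0496 on the latter scale.

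HNRNPA2B1, the most abundant member, had a mean of 250.2 ± 46.2 TPM (SD, n = 16) and then 314.3 ± 49.0 TPM. It rose by 0.34 ± 0.07 as deposited (limma adjusted p = 0.00323) and did not pass when median-scaled (0.12, limma adjusted p = 0.149). HNRNPM, HNRNPK, HNRNPR, HNRNPC, HNRNPA0, HNRNPH1, HNRNPL and PTBP2 also rose over all animals as deposited, by between 0.19 and 0.40, and did not pass when median-scaled. HNRNPA1, HNRNPD and HNRNPF had differences of 0.07, 0.17 and 0.13 and did not pass on either scale. HNRNPA1 in particular has many processed pseudogenes, and it was not given how reads shared with such copies were counted.

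The paralogs PTBP1 and PTBP2, which repress neural exons in non-neural and in immature neural cells, differed in their values. PTBP2 lay between 8.65 and 45.7 TPM, median 26.2, and then between 15.5 and 43.0 TPM, median 35.6, and rose by 0.40 ± 0.14 (limma adjusted p = 0.0356). PTBP1 lay between 9.26 and 20.8 TPM, median 14.8, and then between 7.402 and 21.2 TPM, median 15.6, with a difference of -0.01 ± 0.10 (limma adjusted p = 0.967). When median-scaled, neither passed the test, at 0.19 for PTBP2 and -0.22 for PTBP1.

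The question of whether the change at CLK1 extends to its paralogs and substrates was also put to drinkers and controls apart. In drinkers 24 of the 36 rose and 0 fell, against 32.7% of all tested genes higher and 3.23% lower, and 11 rose and 1, PTBP1, fell when median-scaled, against 12.1% higher and 19.4% lower. Among the 11 were SRSF10, TRA2B and HNRNPK, which did not pass when median-scaled over all animals. In controls 0 of the 36 passed the test in limma as deposited or median-scaled, with 4 at an unadjusted p below 0.05 as deposited, against 0.248% of all genes higher and 0.0522% lower as deposited and 0.392% and 0.189% when median-scaled. The fit on recovered reads with limma-voom also called 0 in controls. As deposited, in drinkers 6 of 10 neuron and 4 of 10 oligodendrocyte markers rose (medians 0.57 and 0.76) and 3 of 10 microglia and 4 of 7 blood markers fell. In controls none of the markers passed (medians 0.28 for neuron and 0.08 for oligodendrocyte markers). With the marker means as covariates the members called in drinkers were CLK4 and TRA2A, higher, and SRSF5, lower (1.61% of genes higher, 1.08% lower). SRSF5 was called lower in controls as well in that fit, so its fall there was not confined to drinkers. Without covariates CLK1 had a log2 difference of 1.70 ± 0.14 in 10 drinkers and 1.11 ± 0.18 in 6 controls.

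CLK4 rose in drinkers by 1.09 ± 0.12 (limma adjusted p = 6.08e-05) and had a difference of 0.65 ± 0.16 in controls, which missed the threshold (limma adjusted p = 0.0888) although all 6 controls were higher. CLK3 rose in drinkers by 0.40 ± 0.11 (limma adjusted p = 0.0135) and differed by 0.46 ± 0.15 in controls (limma adjusted p = 0.212), where 5 of 6 were higher. Among the SR proteins 7 of 10 rose in drinkers, with SRSF7 at 0.71 ± 0.14, SRSF10 at 0.64 ± 0.13 and SRSF1 at 0.60 ± 0.12. The control values of these genes were 0.22 ± 0.18, 0.15 ± 0.17 and 0.23 ± 0.16. Of the hnRNPs 11 of 16 rose in drinkers.

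The difference between the arms was itself tested, and 0 of the 36 passed, nor did any of the 15324 genes (0%). At an unadjusted p below 0.05 there were 5 of the 36 and 1036 of all genes, and limma-voom called 0 of the 36 as well. CLK4 changed by 0.44 ± 0.20 more in drinkers (limma adjusted p = 0.634), with SRSF10 at 0.49 ± 0.22, SRSF11 at 0.55 ± 0.25, SRSF7 at 0.49 ± 0.22 and SRSF3 at 0.49 ± 0.23, each at the same adjusted p. With 6 controls against 10 drinkers, a call in drinkers alone does not show that the arms differ.

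In the authors' deposited table, which has its own fold changes for each arm, 12 of the 36 members other than CLK1 were higher and 2 lower in drinkers at an FDR below 0.05, against 14.1% and 15.4% of the 18922 genes with a value. The 2 lower ones in the authors' deposited table were HNRNPA1 and PTBP1. For controls the authors' deposited table had 1 of the 36 higher, CLK4, and 0 lower, against 1.04% and 0.74% of genes. For CLK4 the authors' deposited table gives log2 fold changes of 0.94 in drinkers and 0.55 in controls, with an FDR of 4.89e-11 and 0.0365. For CLK4 in controls, the limma value misses the threshold that the value in the authors' deposited table passes.

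Before ethanol, the later drinkers and the controls showed no called difference in any of the 37 genes in limma, nor did any tested gene (0%). None of the 37 was at an unadjusted p below 0.05, while 218 of all genes were. The log2 difference, later drinkers minus controls, was -0.37 ± 0.24 for CLK1 and -0.28 ± 0.21 for CLK4 (limma adjusted p = 0.99997 for each). At the second biopsy 0 of 37 passed as well (0% of all genes), with 6 of 37 and 1084 of all genes at an unadjusted p below 0.05. The difference then was 0.22 ± 0.10 for CLK1 and 0.16 ± 0.12 for CLK4 (limma adjusted p = 0.675 and 0.759). Limma-voom also called 0 of 37 at either biopsy.

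The cohorts gave unequal counts but like values for CLK1 and CLK4. In cohort 9, 18 of the 36 rose and 0 fell, against 30.5% of all genes higher and 4.69% lower, and in cohort 13 only CLK4 rose and 0 fell, against 1.02% higher and 0.0522% lower. Median-scaled, 5 rose and 1, PTBP1, fell in cohort 9 (11.8% of genes higher, 18.3% lower), while CLK4 rose and SRSF5 fell in cohort 13 (0.633% and 0.405%). CLK1 differed by 1.46 ± 0.18 in cohort 9 and 1.497 ± 0.18 in cohort 13. CLK4 rose by 0.97 ± 0.15 (limma adjusted p = 8.71e-04) and 0.89 ± 0.15 (limma adjusted p = 0.00546), a difference between cohorts of -0.08 ± 0.22 (limma adjusted p = 0.91). The test of the difference between cohorts called 0 of the 36 and 2 of all genes (0.0131%), with 1 member at an unadjusted p below 0.05, SRSF5, and 0 by limma-voom.

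The cell-type markers also moved unequally in the cohorts. As deposited, in cohort 9, 7 of 10 neuron and 6 of 10 oligodendrocyte markers rose (medians 0.75 and 1.03) and 6 of 10 microglia and 4 of 7 blood markers fell. In cohort 13 none of the markers passed as deposited (medians 0.22 for neuron and -0.03 for oligodendrocyte markers). With the marker means as covariates 0 of the 36 passed in cohort 9 (0.0522% of genes higher, 0.157% lower), where CLK4 lost its call at 0.65 ± 0.22 (limma adjusted p = 0.223). In cohort 13 CLK4 rose in that fit by 0.82 ± 0.15 (limma adjusted p = 0.0121) and SRSF5 fell (1.39% of genes higher, 0.346% lower). In the drinkers of cohort 9 alone CLK4 had 0.83 ± 0.21 in that fit and also lost its call (limma adjusted p = 0.0972).

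In the 4 sets of animals formed by arm and cohort, CLK4 rose in the 5 drinkers of cohort 9 by 1.04 ± 0.18 (limma adjusted p = 0.00802) and in the 5 of cohort 13 by 1.15 ± 0.18 (limma adjusted p = 0.00574). In the 3 controls of each cohort it differed by 0.84 ± 0.23 and 0.46 ± 0.23 (limma adjusted p = 0.201 and 0.909). CLK1 values in the same order were 1.58, 1.82, 1.25 and 0.97. Among the drinkers of cohort 9, 10 of the 36 rose, against 14.8% of all genes higher, and among those of cohort 13 only CLK4 did, against 0.613%. In controls 0 passed in either cohort, against 0.0261% and 0.00653% of genes higher. For the 36, the median difference was 0.43 and 0.39 in the drinkers and 0.37 and -0.03 in the controls of cohorts 9 and 13, beside 0.21, 0.18, 0.24 and 0.01 for all tested genes. All animals share 1 estimate of the spread in these fits, and the counts rest on single animals. Without X10226, X10227 and X10232, whose biopsies carry different RNA codes in their titles, 0 members passed in cohort 13 (0.17% of genes higher) and 28 in cohort 9 (39.3%). CLK4 was still higher in all 5 remaining animals of cohort 13, at 0.71 ± 0.15 (limma adjusted p = 0.0782). Without X10227 alone CLK4 lost its call in the drinkers of cohort 13, and without X10230 alone the count there went to 20. Leaving out X10200, X10201 or X10203 brought the count in drinkers of cohort 9 from 10 to 1, leaving out X10206 to 3, and X10198, X10233 or X10234 to 6. In cohort 9 as a whole the count of 18 went to 8 without X10201 and to 9 without X10197. The shares of all genes called in these leave-outs are not given here, so the moves cannot be told apart from moves of genes at large.

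Levels at the first biopsy differed between cohorts for 4 of the 37 genes, all lower in cohort 13, against 11.8% of all genes lower and 4.44% higher. The members called lower were close to the share over all genes, so this count is not particular to them. SRRM2 had 8 first biopsies between 100.2 and 135.6 TPM, median 115.3, in cohort 9 and between 31.9 and 76.8 TPM, median 56.7, in cohort 13, with no overlap, and a log2 difference of -1.11 ± 0.16 (limma adjusted p = 2.56e-04). At the second biopsy SRRM2 lay between 73.3 and 141.8 TPM in cohort 9 and between 31.6 and 90.8 TPM in cohort 13, now overlapping. CLK1, CLK4 and CLK2 were lower in cohort 13 by log2 values of -0.72 ± 0.23, -0.66 ± 0.20 and -0.53 ± 0.16 (limma adjusted p = 0.0371, 0.0327 and 0.0329). CLK3, by contrast, differed by -0.06 ± 0.15.

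**Figure D4:**
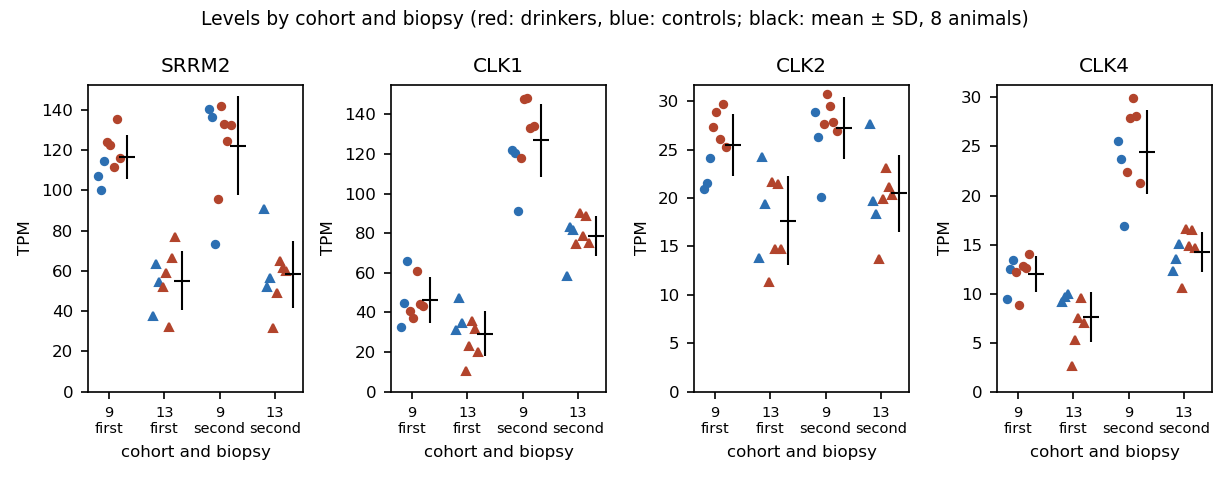
TPM of SRRM2, CLK1, CLK2 and CLK4 by cohort and biopsy, with 1 point per animal (red for drinkers, blue for controls) and the mean ± SD of 8 animals in black. SRRM2 in cohort 13 reaches at most 90.8 TPM at either biopsy, and CLK1 and CLK4 rise from a lower start in cohort 13 than in cohort 9.

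When median-scaled, the 4 remained called lower and SRSF11 joined them, and SRPK2, SRSF2, SRSF7, HNRNPC, HNRNPF and HNRNPK were called higher in cohort 13, against 20.5% of all genes higher and 13.3% lower. Here too the members were close to or below the shares over all genes. The cohorts also differ in RNA code and in depth, and these and cohort cannot be told apart. Leaving out any 1 of X10200, X10203, X10204, X10206 or X10207 left SRRM2 as the only call as deposited, and leaving out X10201, X10232 or X10236 left SRRM2 and CLK4.

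Splicing genes outside the 37 were counted from lists of the same machinery, as deposited and then median-scaled. Of 11 other CLK-related kinases 5 rose and then 3 with 1 lower, of 18 other SR and hnRNP genes 12 and then 4, and of 27 core spliceosome genes 13 and then 6. Of 29 neural splicing regulators 15 rose and then 6, and of 14 nonsense-mediated decay factors 8 and then 1, with 0 falling in each of these on either scale except as stated. As deposited, each list had a larger share of rises than all tested genes, whose shares in all animals are given above. When median-scaled, the nonsense-mediated decay factors were below the share of all genes higher and the other lists above it. The medians of these 5 lists lay between 0.22 and 0.28 as deposited, beside 0.33 for the members and 0.17 for all tested genes, and between 0.01 and 0.07 when median-scaled, beside 0.11 and -0.04. All of these medians shift by the same amount with median scaling, so the gaps between them are the same on both scales.

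In these lists the 3 genes with the smallest p are named. Chosen after its values were seen, the neuronal RNA-binding gene ELAVL2 had a difference level with that of CLK4, at 0.92 ± 0.19 as deposited and 0.71 when median-scaled (limma adjusted p = 0.00214 and 0.00318). In drinkers ELAVL2 rose by 1.17 ± 0.23, where CLK4 rose by 1.09, and in cohort 9 by 1.24 ± 0.25, where CLK4 rose by 0.97. DYRK3, a kinase that dissolves speckle-like condensates, went from 1.59 ± 0.48 to 2.91 ± 0.86 TPM (SD, n = 16) and rose by 0.59 ± 0.10 (limma adjusted p = 5.78e-04), with DYRK2 at 0.42 and the spliceosomal kinase PRPF4B at 0.50. HNRNPH3, from 64.3 ± 13.0 to 89.2 ± 12.6 TPM, rose by 0.48 ± 0.07 in 16 of 16 animals, HNRNPLL by 0.60 and RBMX by 0.41. The spliceosome genes PRPF3, PLRG1 and SNRPC rose by 0.57, 0.58 and 0.43.

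RBM4, a splicing and translation regulator, rose by 0.66 ± 0.09 in 16 of 16 animals (limma adjusted p = 6.51e-05), KHDRBS3 by 0.56 and TARDBP by 0.46. The exon junction and decay genes EIF4A3, UPF3B and MAGOH rose by 0.35, 0.32 and 0.31 as deposited and lost the call when median-scaled. The cold-inducible genes RBM3 and CIRBP, which belong here because CLK activity is known to depend on temperature, did not pass as deposited, at -0.23 and -0.05. When median-scaled they fell by 0.44 and 0.26 on the log2 scale (limma adjusted p = 0.00164 and 0.00786).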

How the data were processed

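RNA was measured in 32 biopsies of area 46 from 16 animals. Libraries were unstranded, single-end and poly-A selected, per the labels. STAR 2.5.2b, HTSeq 0.6.1p1 and DESeq2 are named in the submitters' processing notes; the genome build, annotation and settings were not given in the sources used here. Per the file headers, the deposited values are TPM per library, beside the authors' deposited log2 fold changes, p-values and FDR for drinkers and controls. Of 38 labelled samples, 6 second biopsies were not analysed here.

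Testing used genes whose mean TPM reached 1, in limma 3.58.1 (limma-trend on log2(TPM + 1), R 4.3.3), the animal as a block, and Benjamini-Hochberg adjustment over all 15324 genes, at an adjusted p below 0.05. Fold changes are on the log2(TPM + 1) scale, which understates low genes. The same animal number names both biopsies of 1 animal; deviations of the pairs correlated at 0.07 to 0.54 (median 0.33, above 0.1 in 14 of 16). Whole reads were recovered from TPM steps for 29422 of 29437 genes (99.9%, tolerance 0.001) and used for depth and limma-voom. All 37 members are named, with up to 3 genes per other list by smallest p. The members and lists were chosen with earlier results of these data known. Lists count a gene once per list; the markers are lists of general knowledge. The fit was tested on simulated data. Alternatives were median scaling, TPM without mitochondrial genes, other filters and pseudocount, limma-voom, no block, pairs with 1 RNA code, composition covariates and leaving out each animal. Figures used Python 3.11.15 and matplotlib 3.10.9.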

Additional observations from a re-analysis of the deposited data

Results flagged for a closer look

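In 222 sets of 6 to 10 samples of 1 member, the highest or lowest sample was tested for standing apart by Dixon's criterion, and 6 did so (2.7%), where chance flags about 1 in 20 sets. All 6 come from X10226, a drinker, and X10232, a control, of cohort 13, each with 2 RNA codes over its biopsies.

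In X10226 the CLK1 log2 change was 2.73, above the next drinker at 1.96, from a first-biopsy level of 10.4 TPM. The second biopsy of X10226 also had the lowest CLK3, 10.02 TPM against 15.0 in the next drinker, and the lowest PTBP1, 7.402 TPM against 13.2. In X10232 the second biopsy had the highest SRSF9 among controls, 117.7 TPM against 85.7, which made its SRSF9 log2 change 0.82 against 0.16 in the next control. Its HNRNPM change of 1.01 compares with 0.42 in the next control. The part of the RNA code in these values was not tested. Without the 3 animals that have 2 codes, the log2 difference over all animals was 1.39 for CLK1 and 0.87 for CLK4 (limma adjusted p = 9.73e-05).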

How the results depend on the processing

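Of 117 counts of members under other settings, 86 stayed within 1.5 times the reported count. Many of the 86 are counts of 0 that stayed at 0, as in controls and in the tests of a difference between arms or cohorts. The 86 therefore overstates how stable the counts above 0 were. Median scaling gave 9 in all animals, 12 in drinkers, 6 in cohort 9, 2 in cohort 13, 4 in cohort 9 drinkers and 11 between cohorts at the first biopsy. TPM without mitochondrial genes gave 15 in all animals, 2 in cohort 13 and 13 between cohorts, all lower. Limma-voom gave 11, 15 in drinkers, 8 in cohort 9, 2 in cohort 13, 4 in cohort 9 drinkers and 11 between cohorts. In pairs with 1 RNA code there were 11 in drinkers, 28 in cohort 9, 20 in its drinkers and 0 in cohort 13 and its drinkers. Composition covariates gave 2 in all animals, 3 in drinkers, 1 in controls (SRSF5, lower), 0 in cohort 9 and in its drinkers, 2 in cohort 13 and its drinkers, and 1 in its controls. Without the animal as a replicate block, the count was 17 in all animals and fell to 1 in cohort 9 drinkers. No filter gave 3 there, and a minimum of 5 TPM gave 2 in cohort 13 drinkers. The cause of these moves was not tested. Shares of all genes are not repeated beside these counts, so a move of the members cannot be told apart here from a move of genes at large.

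Leaving out each animal gave 20 to 26 in all animals, 19 to 27 in drinkers, 8 (without X10201) to 23 in cohort 9, 1 in cohort 13, 1 to 14 in cohort 9 drinkers, 0 to 20 in cohort 13 drinkers and 1 to 5 between cohorts at the first biopsy. It gave 0 in controls, in controls of each cohort, for drinkers against controls in change and at each biopsy, and for the difference between cohorts. Median-scaled, it gave 5 (without X10200, X10201 or X10227) to 14 (without X10232), a range added after seeing the data. CLK4, SRSF1, TRA2A and HNRNPU were called in all 16. The leave-out counts also stand without the shares of all genes.

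Signs turned for CLK2 (-0.059), DYRK1A (-0.018), SRSF9 (-0.13), SRRM2 (-0.15), HNRNPA1 (-0.15), HNRNPD (-0.044), HNRNPF (-0.079) and HNRNPL (-0.025) with median scaling. Without mitochondrial genes they turned for SRSF9 (-0.056), SRRM2 (-0.075) and HNRNPA1 (-0.066), and with limma-voom for CLK2 (-0.0061), SRSF9 (-0.091), SRRM2 (-0.11), HNRNPA1 (-0.10), HNRNPD (-0.00066) and HNRNPF (-0.030). With composition covariates they turned for DYRK1A (-0.10), SRSF6 (-0.052), SRSF9 (-0.026), SRRM1 (-0.057), SRRM2 (-0.12), HNRNPA1 (-0.084), HNRNPD (-0.057) and HNRNPF (-0.019), and in pairs with 1 RNA code for PTBP1 (0.0051). Leaving out 1 animal gave -0.046 to 0.048 for PTBP1, -0.019 to 0.11 for SRRM2 and -0.20 to 0.0042 for SRSF5. In all animals, none of these members was called as deposited except HNRNPL. With all animals in the count, CLK4 was called under each of these settings; in cohort 9 and its drinkers it lost its call with composition covariates.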
